A study of Mus musculus with 6 samples.

Results

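Forkhead transcription factors are proteins that share a DNA-binding domain called the forkhead, or winged helix, and their genes carry names made of Fox, a subclass letter and a number. The genes described here are the entries of the RNA-seq table whose name has this form with a letter from a to s, and 43 of the 23235 entries of the table met it. The samples came from E14Tg2a, a mouse embryonic stem cell (ESC) line, at passages 37 to 40. The pluripotent ESCs were 3 samples grown with leukemia inhibitory factor (LIF), which holds these cells in self-renewal. The neuronal cells (NCs) were 3 samples grown as monolayers without LIF in 1 μM retinoic acid (RA) for 2 days (48 h). Total RNA of a replicate came from 2 culture plates. All samples were of 1 line, and LIF withdrawal and RA treatment came together, so their parts cannot be told apart. Each gene has 1 value per condition, an FPKM (the number of sequenced fragments divided by transcript length in kilobases and by library depth), which merges the 3 samples of the condition. Values of single replicates were not analysed here. No SD, n or test therefore stands beside any value, and no difference has a replicate check. Where a pair of values stands together, the ESC value comes first.

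Most forkhead factors bind DNA as monomers, while Foxp proteins form dimers. Several, above all the Foxa proteins, can bind their sites in compacted chromatin and open it for other factors. Foxd3 and Foxh1 are known from pluripotent cells and the early embryo, and the Foxo proteins carry growth factor signals, since AKT phosphorylates them and so keeps them out of the nucleus. Many other members each mark a tissue of the embryo, such as endoderm and floor plate (Foxa2), lens (Foxe3), kidney stroma (Foxd1) or ciliated cells (Foxj1).

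The samples were checked against cell type markers first. All 8 pluripotency markers were at least 2-fold lower in NCs, among them Pou5f1, at 832 FPKM in ESCs and 37.1 in NCs. Of 7 neural markers with at least 1 FPKM in either condition, 4 were at least 2-fold higher in NCs, such as Pax6 (3.64 and 65.2 FPKM), and 1 was lower, the neuronal tubulin Tubb3 (33.4 and 7.54 FPKM). Neurog2 and Dcx, which mark neurons and their precursors, stayed under 1 FPKM. Over all 13293 entries with at least 1 FPKM in either condition, 12.5% were at least 2-fold higher in NCs and 10.6% lower. In bulk RNA, fewer cells of a type and less RNA per cell cannot be told apart.

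Promoter sequences were matched by symbol from RefSeq windows of 300 bases on GRCm38.p6, which run from 250 bases before each transcription start to 50 after it. Of the 43 forkhead genes, 28 had a window, and since that is 65.1% of them, under the 80% required, a check over the whole family is void and the matches are given gene by gene. The sequences shown are those of 3 genes with large ratios that were higher in NCs, Foxe3, Foxd2 and Foxa1, and of Foxi3 and the pluripotency factor gene Foxd3, which were lower. They were chosen after the values were seen. Each is written 5′ to 3′ on the gene's strand and ends before the first annotated exon base near the start, and capitals mark the letters of a searched motif. The stretches lie at chr4:114926068-114926317 (Foxe3, minus strand), chr4:114908899-114909148 (Foxd2, minus strand), chr12:57546122-57546361 (Foxa1, minus strand), chr4:99656049-99656298 (Foxd3, plus strand) and chr6:70956356-70956530 (Foxi3, plus strand). The Foxa1 stretch is intronic to a longer annotated transcript that starts further upstream.
Foxe3: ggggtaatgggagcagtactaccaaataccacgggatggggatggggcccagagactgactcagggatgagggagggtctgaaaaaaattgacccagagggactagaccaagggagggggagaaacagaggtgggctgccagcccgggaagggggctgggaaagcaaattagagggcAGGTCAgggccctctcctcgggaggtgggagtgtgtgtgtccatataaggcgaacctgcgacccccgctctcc
Foxd2: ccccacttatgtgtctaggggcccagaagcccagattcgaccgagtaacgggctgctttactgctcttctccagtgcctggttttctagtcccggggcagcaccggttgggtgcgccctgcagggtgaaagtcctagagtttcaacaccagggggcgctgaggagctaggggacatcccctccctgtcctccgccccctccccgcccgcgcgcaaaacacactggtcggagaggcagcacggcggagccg
Foxa1: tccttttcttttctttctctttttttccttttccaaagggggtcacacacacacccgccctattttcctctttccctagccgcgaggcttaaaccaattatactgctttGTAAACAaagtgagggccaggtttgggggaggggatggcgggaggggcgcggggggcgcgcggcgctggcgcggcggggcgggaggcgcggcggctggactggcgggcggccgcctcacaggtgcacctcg
Foxd3: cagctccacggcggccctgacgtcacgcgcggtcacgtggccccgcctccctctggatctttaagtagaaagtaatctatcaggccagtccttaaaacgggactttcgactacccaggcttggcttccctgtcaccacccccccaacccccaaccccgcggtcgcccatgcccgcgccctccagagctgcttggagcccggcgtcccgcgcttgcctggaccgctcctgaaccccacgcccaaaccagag
Foxi3: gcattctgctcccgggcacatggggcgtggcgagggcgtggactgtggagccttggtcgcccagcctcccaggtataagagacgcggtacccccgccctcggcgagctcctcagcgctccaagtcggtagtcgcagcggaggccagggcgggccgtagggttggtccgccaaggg

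The forkhead motif GTAAACA, searched on both strands, was in 1 of the 28 matched genes, Foxa1, at positions -141 to -135 relative to the start. It was in 3.65% of all 32851 windows. The nuclear receptor hexamer AGGTCA, also searched on both strands, was in 5 matched genes, Foxe3, Foxi2, Foxk2, Foxn3 and Foxp3, and in 16.3% of all windows. In Foxe3 it lay at positions -73 to -68, while Foxk2 and Foxn3 were within 2-fold between the conditions. Direct repeats of 2 hexamers of the AGGTCA type, 5 or 2 bases apart, were in no matched gene, and in 0.0974% and 0.268% of all windows. The windows of the 5 genes shown held between 10 (Foxe3) and 31 (Foxi3) CpG dinucleotides, against a median of 7 over all windows. A match or its absence describes these letters only.

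Each gene was first placed by its level. With a limit of 1 FPKM, 21 forkhead genes were above it in ESCs and 27 in NCs. Of the 31 genes above it in either condition, 17 were above it in both, 10 in NCs only and 4 in ESCs only. The other 12 stayed below it in both. A gene was then counted as higher or lower in NCs when its FPKM differed at least 2-fold and the larger value was at least 1 FPKM. By this rule 11 of the 31 genes (35.5%) were higher, where the share over all 13293 entries past the same filter was 12.5%, and 6 (19.4%) were lower, where it was 10.6%. The remaining 14 were within 2-fold.

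That count rests on genes that passed the filter through 1 condition alone, as 14 of the 31 did. Such a gene meets the 2-fold limit more easily, and all 14 were counted as higher or lower. Among the 17 genes with at least 1 FPKM in both conditions, 1 was higher (Foxp4) and 2 were lower (Foxh1 and Foxr1), while 7.45% of all 11717 such entries were higher and 7.89% lower. The median log2 ratio (NCs over ESCs) of the 31 genes was 0.04, beside -0.03 for all entries past the filter. Summed over all 43 members, the level was 213 FPKM in ESCs against 230 in NCs.

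**Figure D1:**
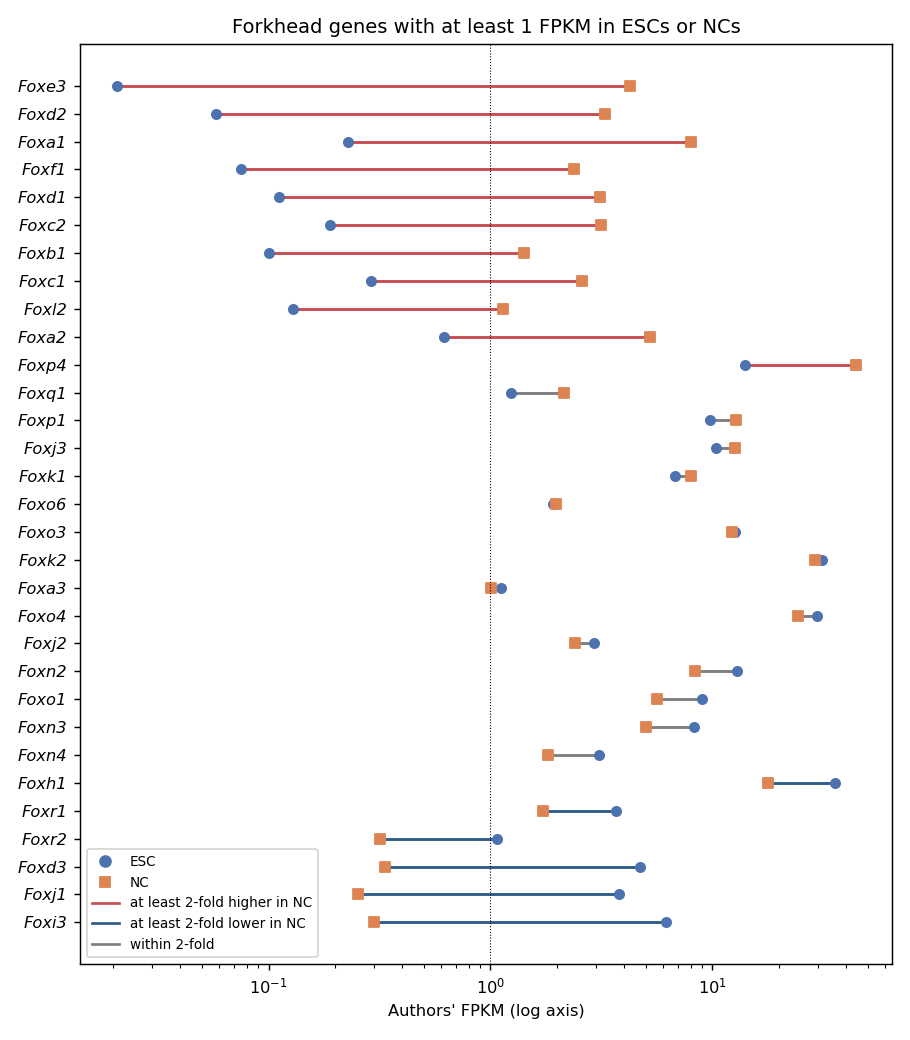
Authors' FPKM (log axis) of the 31 forkhead genes with at least 1 FPKM in ESCs (circles) or NCs (squares), ordered by their ratio, with the line colored by the 2-fold rule and the dotted line at 1 FPKM. Of the 11 genes with a higher value in NCs, 10 had at most 0.617 FPKM in ESCs, and Foxp4 went from 14 to 44.1 FPKM.

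**Figure D2:**
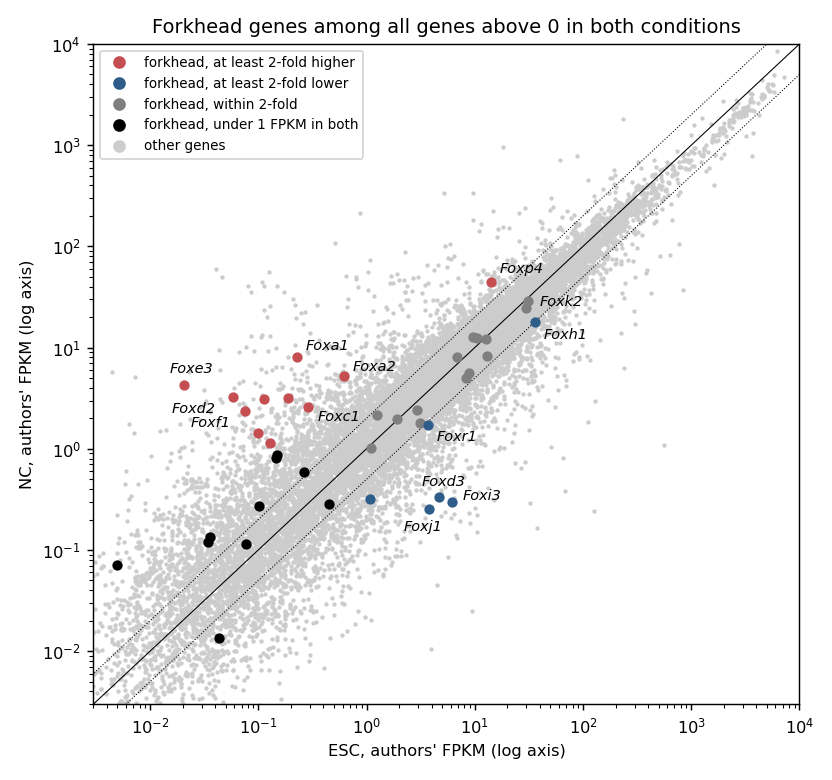
Authors' FPKM in NCs against ESCs (both axes log) for genes above 0 in both conditions within the plotted range, with forkhead genes colored by the 2-fold rule, a solid line at equal levels and dotted lines 2-fold to each side. Foxe3 (0.0207 and 4.25 FPKM) lies farthest above the lines and Foxi3 (6.15 and 0.3 FPKM) farthest below among forkhead genes past the filter.

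Of the genes that were higher in NCs, all but Foxp4 had very little transcript in ESCs. Leaving out Foxp4, the 10 others had at most 0.617 FPKM in ESCs and between 1.14 and 8.02 FPKM in NCs, and their sum was 1.82 FPKM in ESCs against 34.6 in NCs. They belong to the subclasses a, b, c, d, e, f and l, which hold factors of germ layers and organ primordia.

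Foxa1 and Foxa2, pioneer factors of the endoderm whose products also pattern the floor plate of the neural tube, had the largest NC levels of these 10. Foxa1 (chr12:57540628-57546916 on mm10) was at 0.227 FPKM in ESCs against 8.02 in NCs, a 35.4-fold difference (log2 ratio 5.14). Foxa2 (chr2:148042877-148046969) was at 0.617 and 5.24 FPKM, 8.49-fold higher. The related Foxa3, which acts in liver, was at 1.11 and 1.01 FPKM. Foxa3 was thus within 2-fold, unlike the other Foxa genes. Beside these values, 4 of 5 endoderm markers past the filter were higher in NCs and none was lower. Over all entries past the filter, these shares were 12.5% and 10.6%. Of the higher ones, Sox17 (0.861 and 4 FPKM) and Sox7 (0.741 and 1.52 FPKM) passed the filter through NCs alone. The summed level of all 7 was 16.4 FPKM in ESCs against 34.6 in NCs, with Afp and Ttr under 1 FPKM. All of these markers but Dab2 are also in the list of Foxa2 partners and targets below. The part of these markers in the Foxa values was not tested.

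Foxd1 and Foxd2, known from kidney stroma and from the developing eye, head and kidney mesenchyme, were both higher in NCs. Foxd1 (chr13:98354242-98359305) was at 0.112 FPKM in ESCs against 3.1 in NCs, 27.6-fold higher. Foxd2 (chr4:114906282-114908873) was at 0.058 and 3.28 FPKM, 56.6-fold higher. Foxd3 of the same subclass went the other way, as described with the lower genes, and Foxd4 stayed near zero, at 0.0776 and 0.113 FPKM.

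Foxe3 is the forkhead gene of the lens. Foxe3 (chr4:114925147-114926013) was at 0.0207 FPKM in ESCs against 4.25 in NCs. The ESC value is worth about 1 fragment and the NC value about 204, or more with the smaller NC step given under processing. The ratio was 205, with a 95% counting interval from 36.5 to 8025 that covers the ESC count only. The gene is short, with a transcript of 867 bases, and only the NC level can be read with any precision. Its place as the largest ratio of the family holds without a pseudocount only, since with a pseudocount of 1 its log2 ratio was 2.36 and that of Foxa1 2.88, and the interval also includes the ratio of Foxd2 (56.6). Its neighbor Foxd2 lies 16.3 kb away on chromosome 4 and had about 9.9 fragments in ESCs.

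Foxc1, Foxc2 and Foxf1, which act in mesenchyme, blood vessels, the eye and the wall of gut and lung, made up the mesenchymal group. Foxf1 was at 0.0751 FPKM in ESCs against 2.38 in NCs (31.7-fold). Foxc2 was at 0.189 and 3.16 FPKM (16.7-fold). Foxc1 was at 0.291 and 2.59 FPKM (8.93-fold). These 3 genes lay within a narrow range in NCs, from 2.38 to 3.16 FPKM. Foxf1 and Foxc2 stand 28.0 kb apart on chromosome 8, and Foxl1 follows 9.0 kb on, at 0.0347 and 0.119 FPKM. On chromosome 13, Foxf2 (0.101 and 0.273 FPKM) lies between Foxq1, 64.8 kb away, and Foxc1, 175.2 kb away. An annotated transcript, Gm20388, overlaps Foxf1, Foxc2 and Foxl1 on the same strand and was not analysed here. Beside these genes, 3 of 4 fibroblast markers past the filter were higher in NCs and 1 was lower, where the shares over all entries were 12.5% and 10.6%. The summed level of all 5 was 19.6 FPKM in ESCs against 41.9 in NCs. Of the higher ones, Col3a1 (0.514 and 3.67 FPKM) passed the filter through NCs alone. Of 5 mesoderm markers, 4 stayed under 1 FPKM in both conditions. The other, Pdgfra (0.983 and 2.82 FPKM), was higher and passed the filter through NCs alone. The part of the fibroblast and mesoderm markers in the Foxc and Foxf values was not tested.

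Foxb1, which acts in the diencephalon and neural tube, was at 0.1 FPKM in ESCs against 1.42 in NCs (14.2-fold). The antisense transcript B230323A14Rik overlaps it, shares most of the 12.5% of the 50-base words of Foxb1 that occur elsewhere, and was at 0.00959 and 0.0601 FPKM. Foxl2, a factor of ovary and eyelid, was at 0.129 and 1.14 FPKM (8.86-fold). Foxl2os runs on the opposite strand and was at 0.0982 and 0.883 FPKM, 8.99-fold higher. The annotated transcripts of Foxl2 and Foxl2os share no 50-base word.

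Foxp4, a repressor of lung, gut and neural progenitors, was the highest forkhead gene in NCs. Foxp4 (chr17:47867133-47924645) was at 14 FPKM in ESCs against 44.1 in NCs, 3.15-fold higher (log2 ratio 1.66). It was the only member with at least 10 FPKM in ESCs that was counted as higher. Foxp1, which acts in neurons and lymphocytes, was at 9.7 and 12.7 FPKM, within 2-fold. Foxp2, known from speech circuits, was at 0.146 and 0.811 FPKM, and Foxp3, of regulatory T cells, at 0.453 and 0.285 FPKM, so both stayed under the filter. Foxp3 shares 13.9% of its 50-base words with other genes, mainly Ccdc22.

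The genes lower in NCs came from subclasses d, h, i, j and r. Foxd3, which is needed to keep mouse ESCs in culture and later marks neural crest, was at 4.7 FPKM in ESCs against 0.334 in NCs, 14.1-fold lower (log2 ratio -3.81; chr4:99656299-99658622). Of 5 neural crest markers, 3 were higher in NCs, where the share over all entries was 12.5%, and none was lower. Their sum was 4.28 and 12.3 FPKM. The higher ones, Tfap2a (0.207 and 1.92 FPKM), Pax3 (0.0717 and 1.81 FPKM) and Snai2 (0.499 and 3.08 FPKM), passed the filter through NCs alone. Sox10 (1.16 and 1.95 FPKM) and Ets1 (2.34 and 3.58 FPKM), past it in both conditions, were within 2-fold. Foxi3 (chr6:70956531-70961066), a factor of ectodermal and pharyngeal placodes, was at 6.15 and 0.3 FPKM, the lowest ratio of the family (20.5-fold lower, log2 ratio -4.36). Foxi1 was at 0 in both conditions and Foxi2 at 0.00499 and 0.0707 FPKM.

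Foxj1, the master factor of motile cilia, was at 3.79 FPKM in ESCs against 0.252 in NCs (15-fold lower; chr11:116330704-116335399). Foxr2, a factor with oncogenic activity, was at 1.07 and 0.319 FPKM (3.35-fold lower). Its relative Foxr1 was at 3.67 and 1.73 FPKM (2.12-fold lower). Foxh1, the DNA-binding partner of Smad2 in Nodal signaling, was the highest forkhead gene in ESCs, at 35.8 FPKM, and had 17.7 FPKM in NCs (2.02-fold lower; chr15:76668225-76669948). Foxh1 and Foxr1 lay just inside the 2-fold limit, while Foxn4 (1.71-fold lower) and Foxq1 (1.72-fold higher) lay just outside it. Foxh1 was within 2-fold once the ratios were centered on their median, and both Foxh1 and Foxr1 were within it once the columns were scaled to a common sum, where 12 members, Foxq1 now among them, were higher and 4 lower.

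The 14 genes within 2-fold included all 4 Foxo genes, effectors of insulin and growth factor signals. Foxo4 was at 29.7 FPKM in ESCs against 24.4 in NCs. Foxo3 was at 12.6 and 12.2 FPKM, and Foxo1 at 8.94 and 5.6 FPKM. Foxo6, which is known from brain, was at 1.92 and 1.98 FPKM. No Foxo gene was counted as higher or lower, and Foxo4 stayed the most abundant of them in both conditions.

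The Foxk genes, repressors tied to metabolism and autophagy, also stayed within 2-fold. Foxk2 was at 31.2 FPKM in ESCs against 29.1 in NCs, and Foxk1 at 6.78 and 7.99 FPKM. Of the Foxj genes that are not ciliary, Foxj3 was at 10.4 and 12.6 FPKM and Foxj2 at 2.93 and 2.4 FPKM. The 3 Foxn genes past the filter had smaller values in NCs without reaching the limit. Foxn2 was at 12.9 and 8.31 FPKM, Foxn3, a checkpoint repressor, at 8.22 and 5.01 FPKM, and Foxn4, of retina and spinal interneurons, at 3.09 and 1.81 FPKM. Foxq1, a factor of hair and stomach, was at 1.24 and 2.15 FPKM, but 65.7% of its 50-base words also occur in the antisense transcript A530084C06Rik, which was not analysed here, so its value is uncertain.

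Of the 12 genes below 1 FPKM in both conditions, 8 had a higher value in NCs and 2 a lower one, and the largest value was 0.863 FPKM. Foxe1, of thyroid, was at 0.15 FPKM in ESCs against 0.863 in NCs. Foxs1, seen in neural crest derivatives and pericytes, was at 0.0356 and 0.135 FPKM. These levels are low, and no difference is drawn from them. The remaining 2, Foxb2 and Foxi1, were listed at 0 in both conditions.

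The order of levels differed between the conditions at the top. Foxh1, Foxk2, Foxo4 and Foxp4 were the 4 highest in ESCs and together made up 52% of the summed forkhead FPKM. In NCs the same 4 genes led in the order Foxp4, Foxk2, Foxo4 and Foxh1, with 50.2%. The 8 highest genes were shared by both orders, and their sum was 156 FPKM in ESCs against 161 in NCs. Without values of replicates, no neighbors in these orders can be separated.

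By subclass, the shares of the summed FPKM showed where the weight lay. Foxo genes held 25% in ESCs and 19.2% in NCs, and Foxk genes 17.8% and 16.1%. The share of Foxp genes was 11.4% and 25.2%, and that of Foxh, which is Foxh1 alone, 16.8% and 7.72%. Foxa genes held 0.916% in ESCs and 6.21% in NCs. With the highest member of each condition left out (Foxh1 in ESCs and Foxp4 in NCs), the Foxp share in NCs was 7.44%, so the larger Foxp share rests on Foxp4.

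**Figure D3:**
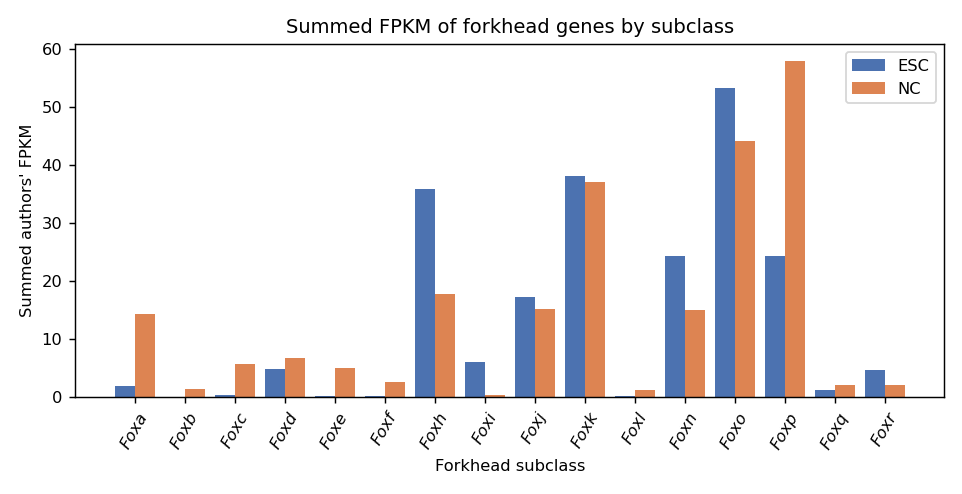
Summed authors' FPKM of the forkhead genes of each subclass with a member past the filter, in ESCs and NCs, on an axis that starts at 0. Foxp genes summed to 24.3 FPKM in ESCs and 57.9 in NCs, Foxh1 to 35.8 and 17.7, and Foxa genes to 1.95 and 14.3.

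A feature that the selection did not use is exon structure, which was looked at after the values were seen. Single-exon genes, in which every annotated coding transcript has 1 exon, made up 8 of the 31 forkhead genes past the filter (25.8%) and 1.98% of all genes past it with a coding annotation. Over all 43 forkhead genes they were 13. They were 6 of the 11 higher genes (Foxc1, Foxc2, Foxd1, Foxd2, Foxe3 and Foxl2), 1 of the 6 lower genes (Foxd3) and 1 of the 14 within 2-fold (Foxq1). Over all genes they were 5.93% of the higher, 1.42% of the lower and 1.43% of those within 2-fold. As most single-exon forkhead genes past the filter passed it through 1 condition, these counts are a description.

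**Figure D4:**
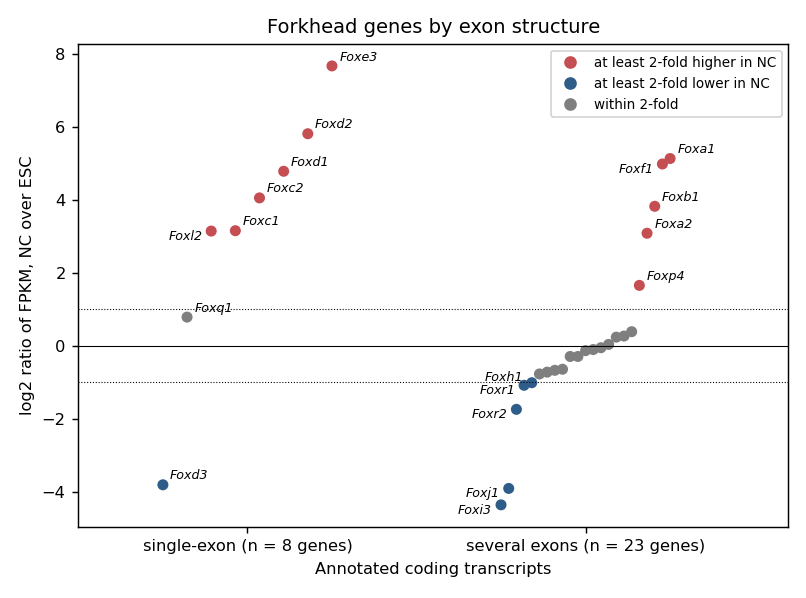
Log2 ratio of FPKM (NCs over ESCs) of the 31 forkhead genes past the filter, split by whether all their coding transcripts have 1 exon, with points spread sideways for legibility and dotted lines at 2-fold. Of 8 single-exon genes, 6 lie above the upper line and Foxd3 lies at -3.81.

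The partners and targets of these factors were described from 6 lists. As background for each count, 12.5% of all 13293 entries past the same filter were higher and 10.6% lower. The other 10223 were within 2-fold. In the Nodal pathway, which Foxh1 serves, 5 of 14 genes past the filter were lower in NCs and 3 were higher. The co-receptor gene Tdgf1 was at 564 FPKM in ESCs against 1.1 in NCs. The ligand genes Nodal (15.6 and 3.24 FPKM) and Gdf3 (27.4 and 5.93 FPKM) were lower, as were the antagonists Lefty1 (47.5 and 3 FPKM) and Lefty2 (23.4 and 0.726 FPKM). The higher genes included, named after their values were seen, the receptor gene Acvr2a (3.62 and 9.25 FPKM) and Smad3 (6.99 and 17 FPKM). The lower genes were thus ligands, the co-receptor and antagonists, with the ligand gene Gdf1 an exception within 2-fold (7.74 and 5.77 FPKM), and no receptor or Smad gene past the filter was among them. The median log2 ratio of the list was -0.39.

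Around the Foxo proteins, most genes were within 2-fold, as were most entries past the filter (10223 of 13293). Of 19 regulators, 15 were within 2-fold, among them Akt2 (28.6 and 27.7 FPKM). Sgk1, a kinase that phosphorylates Foxo proteins, was lower, at 67.1 FPKM in ESCs against 5.37 in NCs. Akt1 (29.5 and 60.6 FPKM) and the insulin receptor substrates Irs1 (0.88 and 6.13 FPKM) and Irs2 (7.13 and 24.8 FPKM) were higher. Irs2 is also a Foxo target. Of 22 Foxo target genes, 16 were within 2-fold, 2 were higher and 4 lower. The ubiquitin ligase genes of muscle atrophy split, with Fbxo32 at 1.03 and 6.75 FPKM and Trim63 at 8.26 and 0.774 FPKM. Klf2, itself a factor of naive pluripotency, was lower (97.9 and 14.2 FPKM), as were Pdk4 (6.13 and 0.654 FPKM) and Sod2 (29.5 and 12.9 FPKM). The median was a log2 ratio of -0.12 for the regulators and -0.20 for the targets.

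Of 20 motile cilia genes listed, 14 were found in the table and 10 of them passed the filter. Of these 10, 3 were lower in NCs, where the share over all entries was 10.6%, and none was higher, where it was 12.5%. Rfx2, a factor that acts with Foxj1, was at 17.7 FPKM in ESCs against 3.69 in NCs. The dynein gene Dnaic1, which passed the filter through ESCs alone, was at 1.56 and 0.191 FPKM and Tekt1 at 6.35 and 1.76 FPKM. Rfx3 (1.48 and 2.85 FPKM) and Ift88 (3.38 and 3.72 FPKM) were among the 7 within 2-fold. Over the list the median log2 ratio was -0.21.

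Of 10 genes of endoderm and floor plate past the filter, which work with or under Foxa2, 7 were higher in NCs. Most of the higher genes passed the filter through NCs alone. The list shares most of the endoderm markers given with the Foxa genes, so the counts are not separate observations. Lhx1 was at 0.108 FPKM in ESCs against 3.39 in NCs and Sox17 at 0.861 and 4 FPKM. The axon guidance gene Ntn1 was at 3.56 and 10.1 FPKM. The 2 lower genes were Otx2, of forebrain and epiblast, at 37.8 and 0.166 FPKM, and Hnf4a, named after its value was seen, at 1.21 and 0.43 FPKM. Shh, a signal of the floor plate, was listed at 0 for ESCs and 0.374 FPKM for NCs. The median log2 ratio was 1.20, and 8 of the 18 genes listed stayed under 1 FPKM.

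Among 14 partner genes of Foxk, Foxp and Foxn proteins, 12 were within 2-fold, including the corepressor genes Sin3a (56.1 and 36.9 FPKM), Hdac1 (139 and 170 FPKM) and Hdac2 (90.2 and 89.4 FPKM). Ctbp2, a corepressor, was lower (96.3 and 30.8 FPKM), and Nfatc1, a partner of Foxp proteins in lymphocytes, was higher (0.367 and 2.18 FPKM). Bap1, whose product binds Foxk proteins, was at 39.2 and 42.3 FPKM. Over all 14 the median log2 ratio was -0.09.

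**Figure D5:**
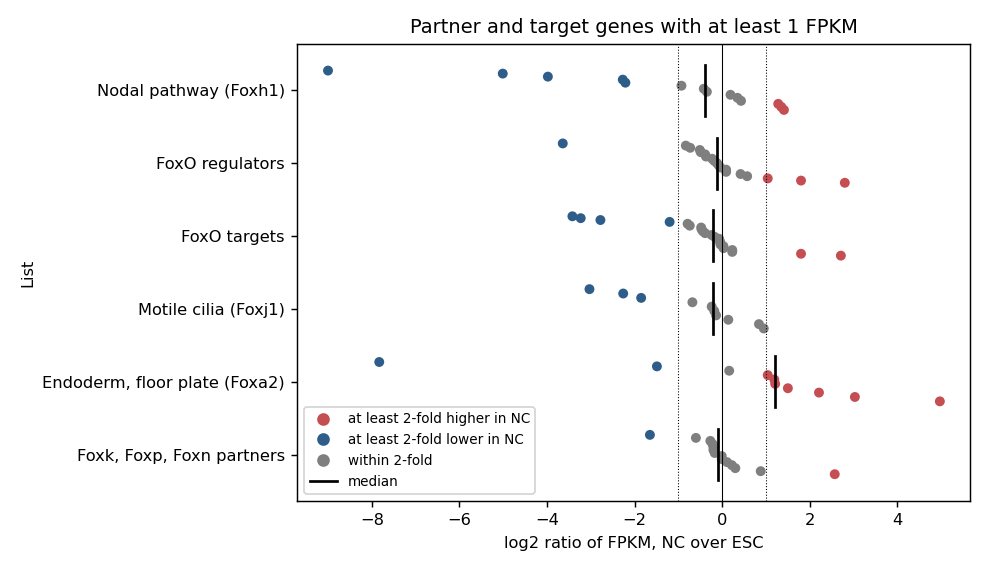
Log2 ratio of FPKM (NCs over ESCs) of each partner or target gene past the filter in 6 lists, with points spread vertically for legibility, a bar at the median and dotted lines at 2-fold. The medians lie between -0.39 (Nodal pathway) and -0.09 (Foxk, Foxp and Foxn partners), except for endoderm and floor plate at 1.20.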

How the data were processed

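RNA was sequenced from 3 samples of ESCs and 3 of NCs. Per the submitters' processing notes, TopHat2 2.0.8, Bowtie2 2.1.0, Cufflinks 2.0.2 and Cuffdiff were used on mm10. The authors deposited 1 table with 1 FPKM per gene and condition, which merges the 3 replicates, so depth per sample is unknown. The NC column heading reads FPK and was taken as FPKM. The columns of the authors' own comparison (fold change, test statistic, p-values and q-values) were not used. The FPKM sum to 770592 in ESCs and 628679 in NCs.

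Ratios were taken without a pseudocount. A gene was counted as higher or lower at 2-fold or more with the larger FPKM at least 1, and the same rule over all entries gave the background. The rule was run on simulated data with planted 4-fold differences, in which every gene passed the filter. That run therefore says nothing about the filter or about genes with low values. After the data were seen, the FPKM worth 1 fragment was taken from steps among small values of single-transcript genes, assuming 200-base fragments. It was 0.014 FPKM for ESCs and 0.0139 for NCs in a transcript with 1 kilobase open to fragments. Another step was seen in each condition, and the larger of the pair was used. In ESCs the other step, 0.0121, was less frequent (55 values against 85). In NCs the other step, 0.0072, was the more frequent (126 values against 73). With it, NC fragment numbers would be larger. Fragment numbers are therefore approximate and cover counting error only. GENCODE M21 gave positions, exons and the 50-base words that transcripts share, and promoters from RefSeq.

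Every forkhead gene with at least 1 FPKM was named, and in each list the largest rise and fall on log2(FPKM + 1) and up to 4 more, apart from a few genes left unreported. The members and lists were chosen with earlier results of these data known. A further list was left out after its values were seen, because its factor was not analysed here. A comparison of protein sequences was not run. Alternatives were other fold limits, filters, pseudocounts, centring, rescaling and other forms of the shares. Python 3.11.15, numpy 2.4.6, pandas 2.3.3, scipy 1.17.1 and matplotlib 3.10.9 were used.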

Additional observations from a re-analysis of the deposited data

How the results depend on the processing

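The counts depended most on the filter on low values. With at least 5 FPKM required, 12 forkhead genes passed in ESCs and 13 in NCs. Of the 14 that passed in either, 3 were higher (8.34% of all entries at that filter) and 2 lower (8.77%). With no filter, 41 were above 0 in ESCs and 41 in NCs, and 18 of the 41 were higher (19.7% of all entries). With at least 1 FPKM in both conditions, an alternative chosen after the data were seen, 1 of 17 was higher and 2 were lower. The median log2 ratio, at 0.04, was -0.08 with the 5 FPKM filter and -0.13 with the filter in both conditions. Of 31 genes, 10 were lower at a 1.5-fold limit (19.4% of all entries) and 3 at a 4-fold limit (3.67%). With a pseudocount of 1, 3 were lower (7.33% of all entries), with Foxh1, Foxr1 and Foxr2 within 2-fold, and 10 were higher (8.08%), with Foxl2 within 2-fold. The log2 ratio of the column sums was -0.29. With columns scaled to a common sum, 17.7% of all entries were higher and 7.37% lower, in place of 12.5% and 10.6%, and 12 and 4 forkhead genes. On shares of log2(FPKM + 1), Foxh held 7.92% in ESCs, Foxk 10.5% in NCs and Foxp 13.7% in NCs. Without the highest member, Foxh held 0% in ESCs and Foxp 7.44% in NCs. No gene past the filter changed direction between a higher and a lower call, but this was fixed in advance. Filters and fold limits leave a ratio as it is, and a pseudocount keeps its sign. Centring and rescaling moved log2 ratios by less than the 2-fold limit. The table holds 1 value per condition, so leaving out replicates was not run. For the same reason, no paired analysis was possible.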
